A study of Mus musculus with 14 samples.

Results

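The proteasome is the main protease of the cytoplasm and nucleus, and its RNAs were followed here in the retinal pigment epithelium (RPE) of mice whose photoreceptors were degenerating. The set was defined by name: every protein-coding mouse gene whose symbol is Psma, Psmb, Psmc, Psmd, Psme, Psmf or Psmg with a number, together with Pomp and Adrm1. It held 51 of the 34452 mouse gene rows of the count table. Of these 51 genes, 50 passed the filter on low counts and were tested, and Psma8 did not.

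RNA came from RPE of rd1 mice at P20 (postnatal day 20). The rd1 allele abolishes Pde6b function, so rods die early, and all the mice carried it. Each of 7 mice received AAV-Best1-GFP in both eyes, and 1 eye also received AAV-Best1-hNrf2, which encodes human Nrf2 (gene NFE2L2). These eyes are called Nrf2 eyes and their partners control eyes, and a library is named by its group and mouse number. The Best1 promoter restricts both transgenes to the RPE. The control eye did not receive a second vector in place of the Nrf2 vector, and the Nrf2 vector used a capsid of its own, so effects of transgene and of a second virus cannot be told apart. Nrf2 is a transcription factor that binds antioxidant response elements and is known to drive genes of detoxification, redox balance and, in many cell types, some proteasome subunits.

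The 20S core of the proteasome is a barrel of stacked rings. The outer rings are made of alpha subunits (Psma genes) and gate the entry, while the inner rings are made of beta subunits (Psmb genes) that carry the 3 proteolytic activities in Psmb5, Psmb6 and Psmb7. The 19S regulatory cap (Psmc, Psmd and Adrm1) binds, unfolds and deubiquitinates substrates: its base holds the ATPases and its lid holds the deubiquitinating enzyme Psmd14. Interferon-responsive cells exchange the catalytic subunits for Psmb8, Psmb9 and Psmb10 and cap the core with the Psme1 and Psme2 activator, which together form the immunoproteasome.

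The 14 libraries held 16548349 to 50543008 counts. The vector transcript was at 4577 to 8711 CPM (counts relative to the library's total) in 6 of the 7 Nrf2 libraries and at 1.12 to 175 CPM in 6 of the 7 control libraries. The library labelled Nrf2 4 and the library labelled control 3 lay between them, both at 1163 CPM, and whether these libraries share RNA or were exchanged cannot be told from the counts. The calls below are therefore also given without mice 3 and 4. Summed CPM of 12 RPE markers were 19480 to 36009 in control and 22648 to 37501 in Nrf2 eyes. Within that list Rpe65, the retinoid isomerase of the visual cycle, was lower in the Nrf2 eye of all 7 mice (log2 fold change -2.17, adjusted p = 0.0199), a call that was lost when mouse 1, 2, 3, 5 or 6 was left out. Ttr, the thyroid hormone carrier transthyretin, had a fold change of the other sign (1.58, adjusted p = 0.104, higher in 6 of 7 mice). Its mean was 3235 CPM in control and 9675 CPM in Nrf2 eyes, so on average it made up more of the sum in Nrf2 eyes. Of the 12 markers, 5 were above 0 and 7 below, and Best1 was at 1.94 ± 0.956 CPM (SD, n = 7) in control eyes. Summed CPM of 10 rod markers were 24.8 to 535 in control and 8.75 to 108 in Nrf2 eyes, those of 9 cone markers 50.1 to 1118 and 29.1 to 137, and those of the 14 tested of 16 immune cell markers 309 to 607 and 226 to 924. The ranges overlapped between groups, but the eyes of a mouse differed. The median log2 fold change was -1.57 over the rod markers (10 of 10 below 0, 0 called), -2.35 over the cone markers (9 of 9 below 0, 2 called lower) and 1.02 over the immune cell markers (11 of 14 above 0, 0 called). The median of paired differences was below 0 in 7 of 7 mice for cones and above 0 in 6 of 7 for immune cells. The immune cell sums went the other way, with a median of 417 CPM in control and 326 CPM in Nrf2 eyes. In mice 1, 2 and 3 the immune cell sum was lower in the Nrf2 eye. The part of these cell types in the results was not tested. In tissue RNA, fewer cells of a type and less RNA per cell cannot be told apart.

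Expression of the proteasome as a whole differed little between the eyes of a mouse. Psmd11, a lid subunit of the cap, and Psma2, an alpha ring subunit of the core, rose in the Nrf2 eyes by about the same amount. No member was called lower, although 2 were lower at an unadjusted p under 0.05. Among the alternatives, DESeq2 and the fit without the mouse block called 1 member lower, Psme2b. Voom called 2 (Psme2b and Psmb10), as did the fit without mouse 4 (Psmb8 and Psmb10). These 4 fits called 6.75% to 15.9% of all genes in either direction. In the main fit, 2 of the 50 members tested (4.00%) were called, beside 3.43% of all 16289 genes tested. The threshold was an adjusted p under 0.05 in edgeR's quasi-likelihood test with mouse as a block. At an unadjusted p under 0.05 there were 8 of 50 members and 18.1% of all genes. For no member were the 7 Nrf2 libraries all above or all below the 7 control libraries, whereas this held for 1.60% of all genes. The share of members that differed was therefore close to that of the transcriptome. The calls also depended on single mice. The fit without mouse 1, 2, 3, 5 or 7 called 0 members (5 to 8 at an unadjusted p under 0.05), beside 0.681% to 2.39% of all genes. The fit without mouse 6 called the same 2 members, beside 1.47% of all genes. The fit without mouse 4 called 6 of 50 members, beside 12.2% of all genes, so the share was again close to that of the transcriptome. No member was called without mice 3 and 4, with no filter on low counts, with the vector row left out of the library sizes or with libraries scaled by total counts alone (6 to 11 at an unadjusted p under 0.05). These fits called 1.19% to 4.5% of all genes. With the mouse left out of the model as a block, 5 members were called, beside 6.75% of all genes.

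The members were measured with a narrower error than most genes. The median coefficient of variation over the control eyes was 10.8% for the members and 25.2% for all genes tested. The 95% interval of the fold change lay within 1.5-fold in either direction for 38 of 50 members (76.0%) and for 33.1% of all genes. Among genes at an average of 50 CPM or more, the shares were 84.6% of 39 members and 55.7% of 4320 genes. The median log2 fold change was 0.044 over the members and -0.042 over all genes.

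**Figure D1:**
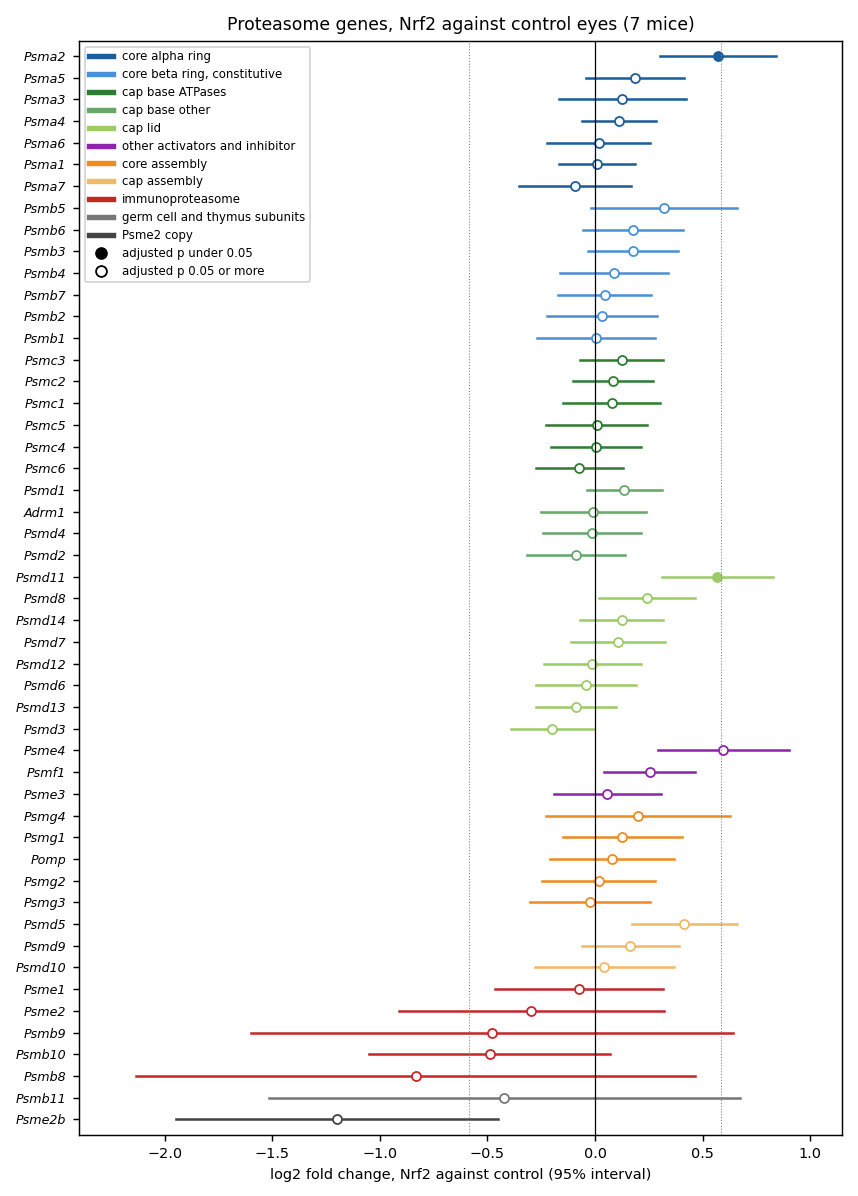
Log2 fold change of each of 50 proteasome genes in Nrf2 against control eyes of 7 mice (x axis), by subgroup (colour), with the 95% interval of edgeR's fit as a bar. Filled points passed an adjusted p under 0.05, and the dotted lines mark 1.5-fold either way. Psma2 and Psmd11 are the filled points, most core and cap genes sit near 0 with short bars, and the bars of Psmb8 and Psmb9 reach from -2.13 to 0.47 and from -1.60 to 0.64.

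Among the 14 core subunits, Psma2 was the member called. Psma2 lies on chr13:14613240-14674236 (GRCm38), plus strand. Its normalised level was 96.2, 118 and 129 CPM (lowest, median and highest) in the control eyes and 120.4, 171 and 209 CPM in the Nrf2 eyes. All 7 mice had more Psma2 RNA in the Nrf2 eye, and 6 of the 7 Nrf2 libraries exceeded every control library. The library labelled Nrf2 4 was the exception. The log2 fold change was 0.57 (SE 0.118, adjusted p = 0.0389). Annotated copies of Psma2 with at least 90% identity held 0.348% of the summed reads, and the sum of Psma2 and these copies was also higher in 7 of 7 mice.

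The other alpha subunits stayed within a narrow band. Their log2 fold changes ran from -0.092 for Psma7 to 0.19 for Psma5, and none passed the test. Copies of Psma3 held 30.2% of the summed reads, so its own level (log2 fold change 0.13) is uncertain. The sum of Psma3 and its copies had a mean paired log2 difference of 0.21 and was higher in 5 of 7 mice. In the beta rings, Psmb5, which carries the chymotrypsin-like activity, had 55.5, 61.1 and 67.8 CPM in control eyes and 54.2, 76.3 and 101 CPM in Nrf2 eyes. It was higher in 5 of 7 mice, with 4 Nrf2 libraries above and 1 below all control libraries (log2 fold change 0.32, SE 0.149, adjusted p = 0.299). Pseudogene copies of Psmb5 held 31.7% of the summed reads, so its own level is uncertain, and the sum with the copies was likewise higher in 5 of 7 mice. Psmb6, the caspase-like subunit, had 134, 152 and 173 CPM in control eyes and 140.2, 182 and 196 CPM in Nrf2 eyes (0.18, SE 0.103, adjusted p = 0.398). Psmb7, the trypsin-like subunit, had 60.8, 64.5 and 76.0 CPM and 54.3, 68.2 and 77.0 CPM, an overlap of nearly the whole range (0.044, 95% interval -0.17 to 0.26, adjusted p = 0.844). The structural beta subunits Psmb1, Psmb2, Psmb3 and Psmb4 gave 0.0047 to 0.18, and none passed. The median of the 14 core genes was 0.10, and the median of paired differences was above 0 in 5 of 7 mice.

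Of the 18 cap subunits, Psmd11 rose. It lies on chr11:80428615-80473248, plus strand, and encodes a scaffold subunit of the lid whose level is known to set how many capped proteasomes assemble in stem cells. Psmd11 had 69.3, 84.5 and 106 CPM in control eyes and 88.4, 127 and 146 CPM in Nrf2 eyes. All 7 mice had the higher value in the Nrf2 eye, and the library labelled Nrf2 4 alone fell within the control range. The log2 fold change was 0.57 (SE 0.113, adjusted p = 0.0340). The processed copy Gm14048, with 97.95% identity over 1269 bases, held 4.65% of the summed reads, and the sum was higher in 7 of 7 mice. Without mice 3 and 4, the log2 fold change was 0.59 (adjusted p = 0.0705) for Psmd11 and 0.63 (adjusted p = 0.0643) for Psma2, so the sizes were kept while the calls were not.

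The other lid subunits went either way without passing the test. Psmd8 had 127, 148 and 151 CPM in control eyes and 143, 167 and 193 CPM in Nrf2 eyes, with 5 Nrf2 libraries above all control libraries (0.24, SE 0.0976, adjusted p = 0.237). Psmd3 had the opposite sign in every mouse: 166, 169.9 and 188 CPM in control eyes against 139.9, 152 and 169 CPM in Nrf2 eyes, with 6 Nrf2 libraries below all control libraries (-0.20, SE 0.0849, adjusted p = 0.263). Psmd14, the deubiquitinase, gave 0.12 (95% interval -0.068 to 0.32). In the base, the 6 ATPases Psmc1 to Psmc6 spanned -0.073 to 0.12, and all 6 intervals lay within 1.5-fold. The ubiquitin receptors and scaffold subunits Psmd1, Psmd2, Psmd4 and Adrm1 spanned -0.088 to 0.14, again with all 4 intervals within 1.5-fold. The median of the 18 cap genes was 0.0049 on the log2 scale. Summed over core and cap, the level was 3808 ± 277 CPM in control and 4023 ± 301 CPM in Nrf2 eyes (SD, n = 7 each). The direction of these sums depends on the scaling: with total counts alone, the median log2 fold change was -0.028 for the core and -0.12 for the cap, and the summed CPM of all members was lower in the Nrf2 eye of 5 of 7 mice.

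Because Nrf2 binds antioxidant response elements, the promoters were searched for the core of that element, TGACNNNGC, on either strand. RefSeq promoters (GRCm38.p6, 250 bases before to 50 after the start site) were at hand for 43 of the 51 members. The letters were present in 7 of the 43 (16.3%) and in 12.4% of all 32851 promoters. A member counted if any of its promoters matched, whereas the 12.4% counts each promoter, so the 2 shares are unlike measures. For 6 of the 7, the match is shown with 10 bases on each side where the window allowed, as read along the gene's strand, with the matching letters in capitals.
Psmb5, chr14:54618024-54618052, minus strand: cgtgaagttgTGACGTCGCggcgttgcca
Psmb6, chr11:70525338-70525366, plus strand: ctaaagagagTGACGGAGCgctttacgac
Psmc6, chr14:45329587-45329615, plus strand: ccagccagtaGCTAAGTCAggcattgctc
Psmd12, chr11:107479278-107479299, plus strand: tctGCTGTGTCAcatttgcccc
Psmd9, chr5:123228149-123228177, plus strand: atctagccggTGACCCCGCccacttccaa
Psme4, chr11:30771758-30771786, plus strand: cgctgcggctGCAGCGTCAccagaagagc
Psma2 and Psmd11 were not among the 7 members with a match. Of the members that hold the letters, Psme4 had the largest log2 fold change and Psmc6 the lowest. The median of the 7 was 0.16 against 0.050 for the other 36. The interferon regulatory factor element, described below, gave the same medians (5 members with it, 38 without). The gamma-activated site, also described below, gave -0.088 (3 with it) against 0.067 (40 without). The contrast was therefore not particular to the antioxidant element. A match of letters describes the window alone. The windows of Psmd9 and Psme4 lie within their annotated genes, which start further upstream, at 123169413 and 30771726. For the called pair, the bases upstream of the start site are printed in lower case throughout, since none of the 3 motifs searched occurs there. Psmd11 is shown over 250 bases, and Psma2 over the 74 bases that no annotated exon covers, since the neighbouring gene Mrpl32 begins on the other strand.
Psmd11, chr11:80428365-80428614, plus strand: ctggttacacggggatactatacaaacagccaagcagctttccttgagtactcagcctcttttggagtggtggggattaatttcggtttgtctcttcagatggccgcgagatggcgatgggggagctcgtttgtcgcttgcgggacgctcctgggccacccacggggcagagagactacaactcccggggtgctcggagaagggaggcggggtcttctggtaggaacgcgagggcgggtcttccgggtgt
Psma2, chr13:14613166-14613239, plus strand: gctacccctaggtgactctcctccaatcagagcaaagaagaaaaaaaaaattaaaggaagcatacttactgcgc

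Outside core and cap, the activators that work without ATP and the inhibitor were examined. Psme4 (PA200), a single-chain activator known for histone turnover, had 23.9, 29.9 and 38.3 CPM in control eyes and 33.1, 45.7 and 57.5 CPM in Nrf2 eyes. It was higher in 7 of 7 mice with 6 Nrf2 libraries above all control libraries. Its log2 fold change of 0.60 (SE 0.135) was the highest of the members and did not pass (adjusted p = 0.0510). Over the alternatives its adjusted p ran from 0.00245 (DESeq2) to 0.173 (without mouse 7). It passed in DESeq2, in voom, without the mouse block and without mouse 4, and in no other alternative. It was at 0.68 without mice 3 and 4 (adjusted p = 0.0724). Psmf1, the inhibitor PI31, had 43.7, 51.0 and 55.9 CPM in control eyes and 51.4, 58.6 and 76.6 CPM in Nrf2 eyes, also higher in 7 of 7 mice (0.25, SE 0.0935, adjusted p = 0.201). Psme3, the nuclear activator PA28 gamma, gave 0.056 (95% interval -0.19 to 0.30).

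The assembly factors comprised chaperones of the cap and of the core, and none of the 8 passed the test. Psmd5, a chaperone that holds base ATPases during cap assembly, had 59.4, 76.1 and 85.0 CPM in control eyes and 77.6, 104 and 121 CPM in Nrf2 eyes. It was higher in 7 of 7 mice (0.41, SE 0.107) and did not pass the test (adjusted p = 0.0792). Over the alternatives its adjusted p ran from 0.00722 to 0.240, and it passed in the same 4 as Psme4. It was at 0.48 without mice 3 and 4 (adjusted p = 0.103). Psmd9, a cap chaperone, had 27.0, 33.8 and 38.0 CPM in control eyes and 35.5, 36.8 and 37.6 CPM in Nrf2 eyes, so the Nrf2 libraries lay inside the control range (0.16, adjusted p = 0.415). Psmd10, the cap chaperone gankyrin, gave 0.044 (SE 0.142). Pomp, the maturation factor of the core, had 84.4, 110.2 and 161 CPM in control eyes and 100.8, 121 and 148 CPM in Nrf2 eyes, with the Nrf2 range inside that of the controls (0.077, SE 0.126, adjusted p = 0.787). The core chaperones Psmg1 to Psmg4 gave -0.023 to 0.20, and none passed.

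**Figure D2:**
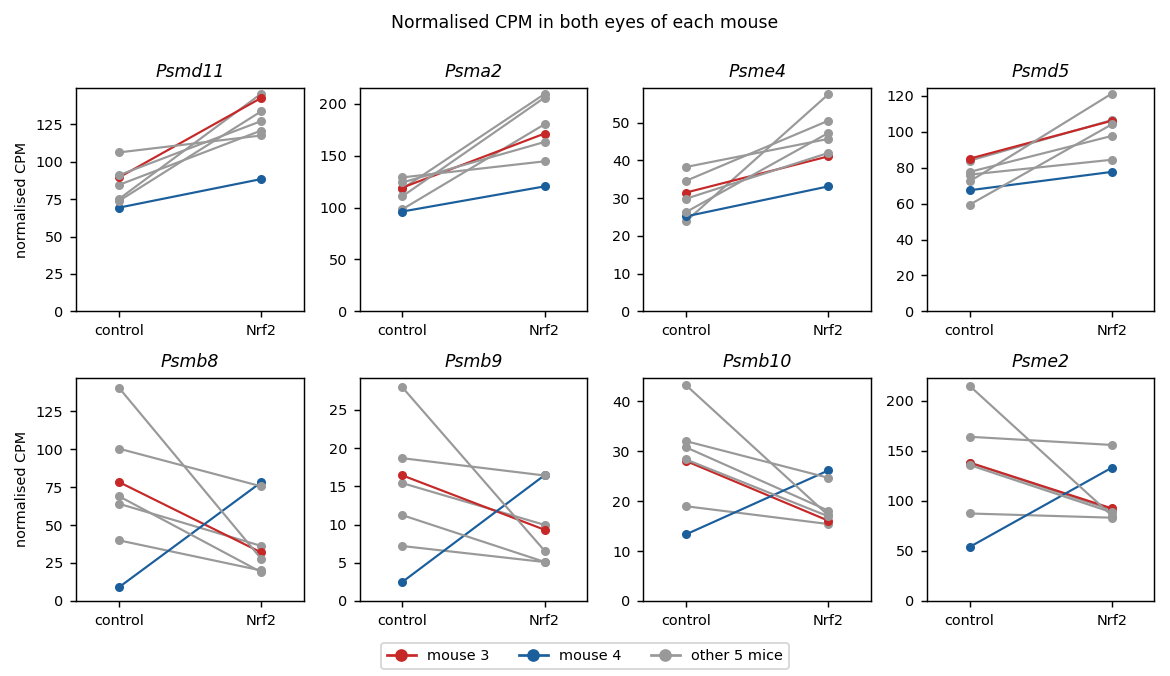
Normalised CPM of 8 proteasome genes (y axis from 0) in the control and Nrf2 eye of each mouse, joined by a line. Psmd11, Psma2, Psme4 and Psmd5 climb in 7 of 7 mice, whereas Psmb8, Psmb9, Psmb10 and Psme2 descend in 6 of 7 and climb in mouse 4.

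None of the 5 immunoproteasome genes passed the test in either direction, none had an unadjusted p under 0.05, DESeq2 called 0 and voom called Psmb10. Their levels varied widely from eye to eye, and 4 of them were lower in the Nrf2 eye of the same 6 mice. Psmb8 (chr17:34197721-34201454, plus strand), the inducible counterpart of Psmb5, had 9.01, 69.0 and 140.4 CPM in control eyes and 19.02, 31.95 and 78.1 CPM in Nrf2 eyes. It was lower in the Nrf2 eye of 6 of 7 mice and higher in mouse 4, where the control eye held 9.01 and the Nrf2 eye 78.1 CPM, a paired log2 difference of 3.11. The log2 fold change was -0.83 (SE 0.572, adjusted p = 0.474). Psmb9 (chr17:34181987-34187764, minus strand), the counterpart of Psmb6, had 2.50, 15.4 and 27.9 CPM against 5.09, 9.31 and 16.5 CPM (-0.48, SE 0.492, adjusted p = 0.640). Psmb10, the counterpart of Psmb7, had 13.3, 28.3 and 43.2 CPM against 15.4, 17.2 and 26.1 CPM (-0.49, SE 0.246, adjusted p = 0.338). Both were again lower in 6 of 7 mice with mouse 4 opposite.

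The activator genes Psme1 and Psme2 were less far apart. Psme2 had 53.8, 138 and 215 CPM in control eyes and 83.1, 90.8 and 156 CPM in Nrf2 eyes, lower in 6 of 7 mice (-0.30, SE 0.270, adjusted p = 0.595). Psme1 had 53.6, 95.03 and 121 CPM against 67.2, 87.8 and 98.99 CPM, lower in 4 of 7 mice (-0.075, SE 0.171, adjusted p = 0.857). Psme2b, an intronless copy of Psme2 with 99.4% identity over 794 bases, was at 1.34 to 3.39 CPM in control and 0.622 to 1.42 CPM in Nrf2 eyes. It was lower in 7 of 7 mice (-1.20, SE 0.329, adjusted p = 0.0950), but at that identity reads of the 2 genes cannot be told apart with certainty.

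These values depended on mouse 4. Without it, Psmb8 (-1.28, adjusted p = 0.0167) and Psmb10 (-0.72, adjusted p = 0.0236) passed the threshold. Psmb9 (-0.89, adjusted p = 0.0634), Psme2 (-0.55, adjusted p = 0.0772) and Psme1 (-0.21, adjusted p = 0.383) did not. For Psmb8, Psmb9, Psmb10 and Psme2, mouse 4 was the one mouse of opposite sign. Leaving it out fixes their direction, so these adjusted p-values are no test of that direction. That fit called 12.2% of all genes, with 1020 genes lower against 80 in the fit of all mice. Without mice 3 and 4, Psmb8 was at -1.28 (adjusted p = 0.0575) and Psmb10 at -0.70 (adjusted p = 0.0844), and none of the 5 passed. The levels of the library labelled Nrf2 4 were near those of the library labelled control 3, for example 78.1 and 78.3 CPM for Psmb8 and 16.5 and 16.4 CPM for Psmb9.

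**Figure D3:**
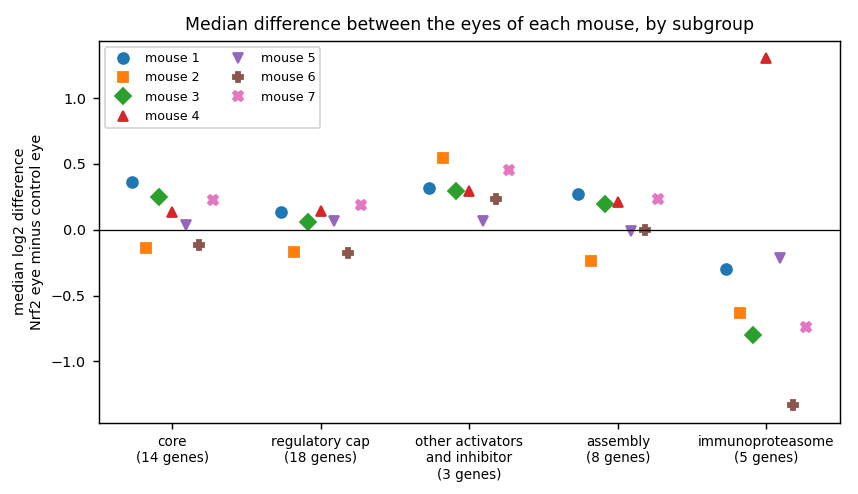
Median log2 difference, Nrf2 eye minus control eye, over the genes of each subgroup (x axis) in each of 7 mice (symbols). The core and cap medians stay between -0.18 and 0.36, whereas the immunoproteasome median runs from -1.33 in mouse 6 to 1.304 in mouse 4.

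Variation among the control eyes was wide for the immunoproteasome and narrow for the standard particle. The ratio of the highest to the lowest control library was 2.25 to 15.6 for the 5 immunoproteasome genes and 1.09 to 1.58 for the 32 core and cap genes. All 5 immunoproteasome genes had their highest value of 14 libraries in control 6 and their lowest in control 4. The same held for Irf1, an interferon-induced transcription factor (230.4 CPM in control 6 and 18.1 CPM in control 4), and for the peptide transporter genes Tap1 (51.9 and 8.12 CPM) and Tap2 (84.6 and 34.0 CPM), of which Tap1 is a close neighbour of Psmb8 and Psmb9. The summed immune cell markers were 418 CPM in control 6 and 320.4 CPM in control 4. In mouse 4 they went from 320.4 CPM in the control to 598 CPM in the Nrf2 eye. In mice 6 and 7, in which Psmb8 was lower in the Nrf2 eye, they went from 418 to 731 CPM and from 417 to 924 CPM. Psmb8 was also lower in mice 1, 2 and 3, where these markers went from 339 to 250, from 418 to 271 and from 607 to 226 CPM. In mouse 5, with Psmb8 lower as well, they went from 309 to 326 CPM. Their part in the immunoproteasome values was not tested.

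The ratio of each inducible subunit to the constitutive subunit it replaces was compared within mice by flipping the signs of the paired differences in every combination, an exact permutation test (two-sided) that cannot give a p below 0.0156 with 7 mice. The log2 ratio of Psmb10 to Psmb7 was 0.52 lower in Nrf2 eyes (mean difference -0.52 ± 0.70, SD, n = 7 mice, exact permutation p = 0.109, adjusted over 3 ratios 0.328). For Psmb8 to Psmb5 the difference was -0.98 ± 1.95 (exact permutation p = 0.25, adjusted 0.359), and for Psmb9 to Psmb6 it was -0.55 ± 1.48 (exact permutation p = 0.359, adjusted 0.359). Each ratio was lower in 6 of 7 mice. Without mouse 4 the differences were -1.65, -1.07 and -0.77 for Psmb8, Psmb9 and Psmb10, and without mice 3 and 4 they were -1.61, -1.06 and -0.71. No test is given for these, since mouse 4 was the one mouse of opposite sign and leaving it out fixes the direction.

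Expressed per transcript length, the median inducible share in the control eyes was largest for Psmb8. In the Nrf2 eyes, the medians of Psmb8 and Psmb10 were close. Psmb5 was taken without its pseudogene copies, which held 31.7% of the summed reads. Counting these copies would lower the share of Psmb8, so its rank beside Psmb10 is uncertain. Psmb8 made up 8.12%, 40.4% and 53.3% (lowest, median and highest) of Psmb8 plus Psmb5 in control eyes and 9.44%, 18.6% and 42.8% in Nrf2 eyes. Psmb10 made up 15.5%, 27.9% and 33.5% of Psmb10 plus Psmb7 in control eyes and 15.6%, 19.5% and 26.4% in Nrf2 eyes. Psmb9 made up 1.07%, 5.64% and 8.72% of Psmb9 plus Psmb6 in control eyes and 1.52%, 2.72% and 5.94% in Nrf2 eyes. The shares of RNA depend on the transcript lengths assumed: with the median length of all coding transcripts in place of the principal ones, the control and Nrf2 medians were 52.6% and 27.2% for Psmb8 and 13.3% and 6.67% for Psmb9, and those of Psmb10 did not change.

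**Figure D4:**
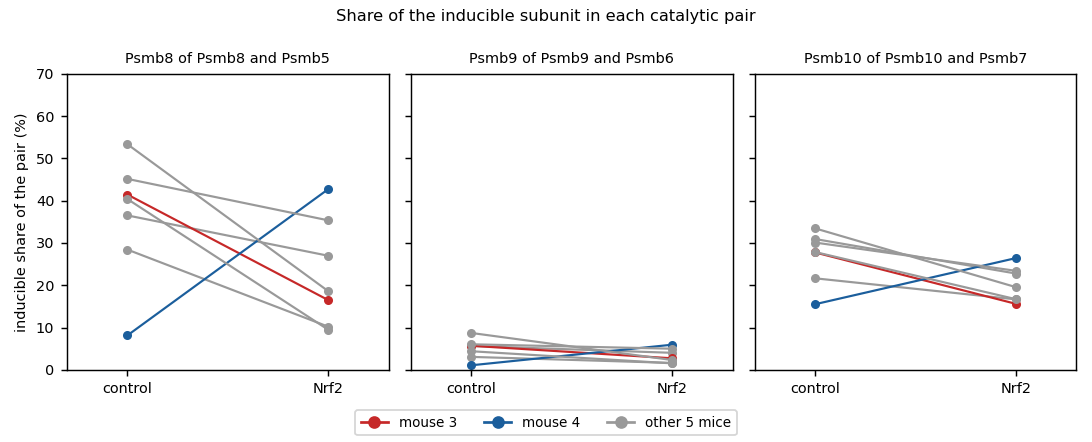
Share of the inducible subunit in the summed RNA of each catalytic pair (y axis, percent of normalised CPM per kilobase) in the control and Nrf2 eye of each of 7 mice. The share of Psmb8 drops in 6 mice and rises from 8.12% to 42.8% in mouse 4, and the share of Psmb9 is below 9% in all libraries.

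Promoters were searched for the gamma-activated site TTCNNNGAA and for the interferon regulatory factor element GAAA, any 2 bases and GAAA, on either strand. The first occurs in 8.30% and the second in 3.44% of all promoters, counted by promoter, while members are again counted by gene. Among the 43 members with a promoter, the first was in Psmb8, Psmd2 and Psmg1, and the second in Psmb3, Psmd4, Psmd9, Psme1 and Psmg4. The match of Psmb8, the gene with the widest spread among the control eyes, is shown with its letters in capitals. Its first base is 97 bases before the RefSeq start site, and it lies within the 5′ UTR of the principal GENCODE transcript, which starts further upstream.
Psmb8, chr17:34198088-34198116, plus strand: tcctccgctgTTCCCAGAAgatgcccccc

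Levels in the control eyes differed widely between genes. Per kilobase of principal transcript, Psmb6 was at 192 and Psma7 at 189.8 normalised CPM per kb, next to Psmb2 at 166 and Psme2 at 138. Most core and cap subunits lay lower, down to 29.4 for Psmc6. Psmb8 was at 44.0, Psmb10 at 21.2 and Psmb9 at 10.5, while assembly factors other than Pomp (73.8) were at 12.7 to 26.1. Psme4 was at 4.61. Psmb11, the thymus subunit, had 0.341 to 1.10 CPM in control eyes, and Psma8, the germ cell alpha subunit, had 0 to 0.496 CPM. The level order of neighbours such as Psmb6 and Psma7 is within the spread of the eyes.

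**Figure D5:**
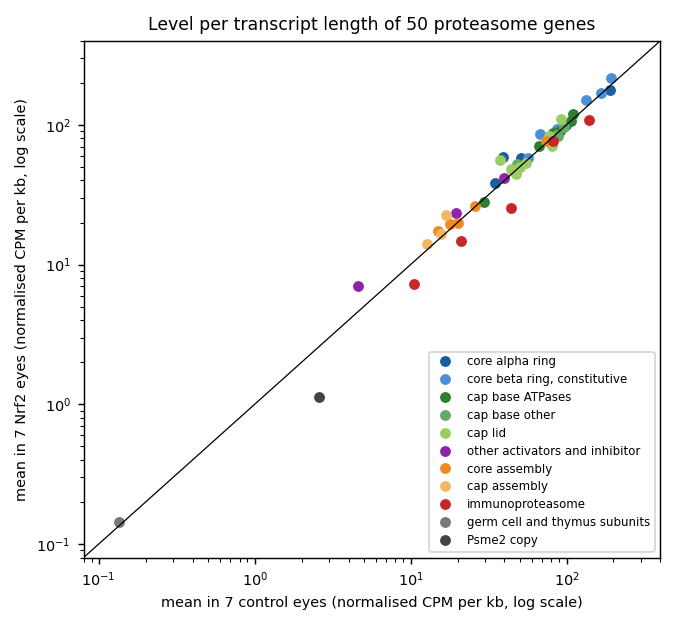
Mean level of 50 proteasome genes in 7 control eyes (x axis) and 7 Nrf2 eyes (y axis), in normalised CPM per kilobase on log scales, coloured by subgroup. The line marks equal levels. Most points lie on or near it. Psme4, Psma2 and Psmd11 are among those above, and Psme2b, Psmb8, Psmb9 and Psmb10 are among those below.

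Partners of the proteasome outside the set were read from a list of regulators, ubiquitin genes and shuttle factors. Of 32 tested, 3 were higher and 0 lower, with a median log2 fold change of 0.033, beside 3.43% called among all genes. These calls were lost in 5 (Akirin2 and Txnl1) or 6 (Sqstm1) of the 7 fits that left out 1 mouse. Akirin2, which carries proteasomes into the nucleus, had 37.3, 42.2 and 50.7 CPM in control eyes and 48.7, 85.5 and 119 CPM in Nrf2 eyes (0.94, SE 0.168, adjusted p = 0.0235). Sqstm1, the p62 ubiquitin receptor and a known Nrf2 target, had 465, 569 and 693 CPM against 663, 1160.1 and 1563 CPM (0.92, SE 0.177, adjusted p = 0.0303). Txnl1, a thioredoxin-like protein that binds the cap through Psmd14, had 63.0, 68.6 and 79.8 CPM against 79.0, 92.4 and 115 CPM (0.42, SE 0.0830, adjusted p = 0.0337). Each of the 3 was above its control eye in 7 of 7 mice. Without mice 3 and 4, Akirin2 (1.07, adjusted p = 0.0236) and Sqstm1 (1.07, adjusted p = 0.0343) passed and Txnl1 (0.42, adjusted p = 0.0873) did not. Nfe2l1, the transcription factor that restores proteasome genes when the protease is inhibited, had 201, 354 and 369 CPM in control eyes and 194, 291 and 365 CPM in Nrf2 eyes (-0.10, 95% interval -0.50 to 0.29, adjusted p = 0.793).

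Of 11 antigen processing and interferon signalling genes tested, 1 was lower and 0 higher, with a median of -0.088, and 3 of the 11 fold changes were above 0 and 8 below. Stat2, a subunit of the interferon-activated complex, had 33.8, 38.3 and 49.7 CPM in control eyes and 19.8, 25.1 and 34.3 CPM in Nrf2 eyes, lower in 7 of 7 mice (-0.58, SE 0.115, adjusted p = 0.0337). The call was lost in 6 of the 7 fits without 1 mouse and in the fit without mice 3 and 4 (-0.63, adjusted p = 0.0578). Irf1 was at -0.89 (SE 0.547, adjusted p = 0.425), Tap1 at -0.24 (adjusted p = 0.752) and Tap2 at -0.31 (adjusted p = 0.480), lower in 6, 5 and 6 of 7 mice. The 3 genes above 0 were B2m, the light chain of MHC class I (0.45, adjusted p = 0.104, higher in 7 of 7 mice), Nlrc5, the class I transactivator (1.41, adjusted p = 0.354, higher in 7 of 7 mice at a mean of 0.580 CPM in control eyes), and the transcription factor Irf8 (0.61, adjusted p = 0.477, higher in 5 of 7 mice).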

How the data were processed

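RNA from RPE was amplified with a low-input kit and sequenced in 2 runs that the labels do not assign to libraries. The authors aligned reads to mm10 with Ensembl 91 annotation and also quantified them with Salmon (version 0.9.1 in the submitters' processing notes). The table deposited by the authors holds whole-number estimated counts of each gene in each library, without normalisation. Salmon as their origin is an inference from which rows the table lists. Such estimates divide reads among near-identical copies by a model.

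The 34452 mouse rows were mapped to GENCODE M21 (34401 matched). Counts were tested with edgeR 4.0.16 (R 4.3.3): quasi-likelihood F-test, TMM, filterByExpr with a minimum count of 10, mouse and treatment as terms, Benjamini-Hochberg adjustment over 16289 genes, threshold 0.05. SE came from the F statistic with 6 residual degrees of freedom before moderation. The vector row counted toward library sizes and was not tested. Printed CPM are counts divided by library size times TMM factor. Lengths are medians of principal transcripts. Log2 ratios used a prior count of 2. Counting error is small at these depths, except for low genes such as Psmb11 (3 to 43 counts per library) and Psme2b (11 to 110). P-values of the fit set the difference between eyes against how that difference varied over these mice, moderated across genes.

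Mouse numbers mark eyes of the same animal in the labels. All 7 labelled pairs were used, and the authors' own comparison used 6. Correlations between the eyes' deviations from group means, over 12009 genes, were 0.034, 0.070, 0.094, -0.44, 0.41, -0.26 and 0.19 in mice 1 to 7.

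The members and gene lists were chosen with earlier results of these data known. Per-library values were given by rule for the catalytic and immunoproteasome genes, Pomp, and the 2 smallest p-values in core, cap and assembly, and partner genes past the threshold plus Nfe2l1. Values of Psme4, Psmf1, Psmd3, Psme2b, Psmb11, Psma8, Irf1, Tap1, Tap2, B2m, Nlrc5, Irf8, Rpe65 and Ttr and the promoters of Psmd11 and Psma2 were chosen after values were seen, as were the windows around motifs. The alternatives were other normalisations (including DESeq2 1.42.0 and limma 3.58.1 voom), filters, the block left out, each mouse left out and a stricter threshold. After seeing the data, total-count scaling and leaving the vector row out of library sizes were added. Copies were found with blastn 2.17.0. The test was checked on simulated counts. The window of 1 further motif match is not reported here.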

Additional observations from a re-analysis of the deposited data

Results flagged for a closer look

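In 6 of 84 groups of 7 libraries, a single library stood apart from the others by Dixon's criterion, and chance alone gives about 4. Psmb7 was at 76.0 CPM in control 6, against 65.8 CPM in the next control library. Psmd2 was at 299 CPM in control 6, against 265 CPM in the next. Psmd10 was at 14.02 CPM in Nrf2 2, below the next library at 22.6 CPM. Psmb11 was at 2.43 CPM in Nrf2 2, above the next at 0.458 CPM. B2m was at 567 CPM in Nrf2 7, above the next Nrf2 library at 448 CPM. Rpe65 was at 1048 CPM in Nrf2 4, above the next at 356 CPM.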

How the results depend on the processing

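Over the 42 genes with fold changes in the text and 17 alternatives, 624 values kept direction and side of the threshold, 23 gained and 54 lost a call, and 13 changed sign. Members called higher (2 in the report) numbered 1 with upper-quartile normalisation, 4 in DESeq2, 6 in voom, and 0 with no filter, without mice 3 and 4, with the vector row left out of library sizes, with total-count scaling or at a threshold of 0.01. Members called lower (0) numbered 1 in DESeq2 (Psme2b) and 2 in voom (Psme2b and Psmb10). Leaving out 1 mouse gave 0 to 4 higher and 0 to 2 lower, with 0 higher without mouse 1, 2, 3, 5 or 7 and the largest counts without mouse 4. Over all genes, 479 were higher and 80 lower. These counts became 307 and 40 with no filter, 1238 and 705 in DESeq2, 1585 and 1005 in voom, 314 and 198 with total-count scaling, and 51 and 5 at 0.01. Without mice 3 and 4, 253 genes were lower. Leaving out 1 mouse gave 102 to 978 higher and 9 to 1020 lower, the highest without mouse 4 and the lowest without mouse 7. The cause was not tested.

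The mouse block follows the animals. With no replicate block, 4 members (Psma2, Psmd11, Psmd5 and Psme4) were higher and 1 (Psme2b) lower, among 877 genes higher and 223 lower, and Psmb11 changed sign to 0.061. The block changed no other call among the members.

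Total-count scaling moved the median of all genes from -0.042 to -0.17 and that of the members from 0.044 to -0.085. Under it Psmb7 (-0.084), Pomp (-0.052), Psme3 (-0.072), Psmc3 (-0.0041), Psmd10 (-0.085) and Psmg1 (-0.0020) changed sign. Without mice 3 and 4, Psmd10 (-0.084) and Psme3 (-0.026) did so, and Nfe2l1 did in voom (0.042). With 1 mouse left out, Psmd10 ran from -0.031 (without mouse 4) to 0.15, Psme1 from -0.21 to 0.020 (without mouse 6), Nfe2l1 from -0.21 to 0.028 (without mouse 2), and the ratio differences ran from -1.65 to -0.69 for Psmb8 to Psmb5, -1.07 to -0.31 for Psmb9 to Psmb6 and -0.77 to -0.43 for Psmb10 to Psmb7. The calls of Akirin2, Sqstm1, Txnl1 and Stat2 were lost when single mice other than 4 were left out, in 5 to 6 of the 7 fits each.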
